A study of Mus musculus with 4 samples.

Results

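Among the immature olfactory sensory neurons of the postnatal mouse nose, 66 cells carried no transcript of any odorant receptor (Olfr) gene. They are called receptor-negative cells here, in the sense that none of the 1419 Olfr genes in the tables had a unique molecular identifier (UMI, the tag that counts 1 captured transcript). The cells were chosen by raw UMIs in each cell. They had at least 500 detected genes, at least 2000 UMIs and at most 10% mitochondrial UMIs. They held 5 or more UMIs of Gap43, a growth cone protein of immature neurons, and at most 1 each of Omp, the mature neuron marker, and Neurod1, a factor of neuronal precursors. Olig1 and Olig2 together were at most 1. These limits without the one on Olfr gave 676 immature neurons, out of 7798 cells past the quality limits and 9126 cells in all.

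Nasal olfactory epithelium from outbred CD-1 mice had been dissociated with papain and sorted, and single cells had been captured at postnatal day 0, 3, 7 and 21 (P0, P3, P7 and P21), with 1 droplet library at each of the 4 ages. By its title, the study concerns neurons needed to form the olfactory map during a critical period. No treatment or transgene is named in the labels, and neither the sort gate nor the sex and number of mice per library is stated in the sources used here. With 1 library per age, age and library cannot be told apart.

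Each olfactory sensory neuron normally settles on 1 receptor gene out of a very large family. In the precursor the receptor genes lie in heterochromatin, and factors such as Lhx2, Ebf and Ldb1 gather at receptor enhancers to activate the chosen gene. The newly made receptor protein strains the endoplasmic reticulum, and the unfolded protein response that follows, through Atf5 and Ddit3 among others, passes through a phase of feedback before the neuron matures. A small group of neurons uses a trace amine-associated receptor (Taar gene) instead of an Olfr gene.

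P0 gave 33 of the 66 cells (113470 UMIs in all), P3 gave 21 (99001), P7 gave 11 (52090) and P21 gave 1 (4228). A receptor-negative cell had a median of 4061 UMIs (lowest 2125, highest 6788) and 1989.5 genes. The comparison class of receptor-bearing immature neurons passed the same limits but held 3 or more UMIs of 1 Olfr gene, and it had 209, 118, 117 and 30 cells with a median of 4539 UMIs. By library from P0 to P21, receptor-negative cells had medians of 3294, 4731, 5170 and 4228 UMIs. Receptor-bearing cells had higher medians in each, 3615, 5829.5, 5797 and 6090.5 UMIs. A further 136 immature neurons held 1 or 2 UMIs of an Olfr gene. Non-cycling precursors (2 or more UMIs of Neurod1, at most 4 of Gap43, none of Mki67 or Top2a) numbered 50, 53, 19 and 16, with a median of 4475 UMIs. All levels below are UMIs summed over the cells of a class in a library, given as CPM, the usual rescaling of each sum to a common total. At P21, 1 UMI in the single receptor-negative cell is worth 237 CPM, so a 0 there carries almost no information.

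Most of the 66 cells matched the label of immature olfactory neuron. Of the other 3 markers (Dpysl3 and Tubb2b of the growing neurite, and the neuronal factor Sox11), 51 cells had all of them, 11 had 2, 3 had 1 and 1 had 0. The olfactory factors Ebf1 or Ebf2 were detected in 64 cells, the G protein subunit of immature olfactory neurons Gng8 in 56 and Lhx2 in 47. Of stromal cells, 13.3% had a Gng8 UMI and 6.24% one of Lhx2, but 54.6% had one of Ebf1 and 48.4% one of Dpysl3, so a UMI of the last pair does not set neurons apart from stroma. Trpc2, which defines vomeronasal neurons, and Gnrh1, Th and Isl1, which mark neurons of other kinds, were at 0 UMIs in the receptor-negative cells of every library. The full list of 5 vomeronasal markers was not absent, with a UMI in 39 of the 66 cells. It was at 308, 222, 480 and 473 CPM from P0 to P21, against 288, 393, 546 and 267 CPM in receptor-bearing immature neurons.

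A group of 4 cells went against the label, each with 20 or more UMIs of a glial or vascular marker list. P3 member 18 and P3 member 19 held 35 and 36 UMIs of ensheathing glia markers, mainly Fabp7 (21 and 22). P3 member 15 held 38 UMIs of endothelial and mural markers, with Rgs5 at 18 and Acta2 at 15, which are pericyte and smooth muscle genes. P7 member 2 held 24 UMIs of that list, 14 of them of Cldn5, an endothelial tight junction gene. None of these 4 cells had a Gng8 or Lhx2 UMI. P7 member 2 is nonetheless among the 51 cells with all 3 other immature markers, with 2 UMIs of Dpysl3 and 1 each of Tubb2b and Sox11. In the other 62 cells, 61 had at least 2 of the 3 immature markers, and all 62 had Ebf1 or Ebf2. Respiratory ciliated markers, not used for that limit, had a UMI in 40 of the 66 cells, at most 16 in 1 cell. They were at 326, 475, 461 and 0 CPM from P0 to P21, against 314, 345, 247 and 395 CPM in receptor-bearing cells.

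**Figure D1:**
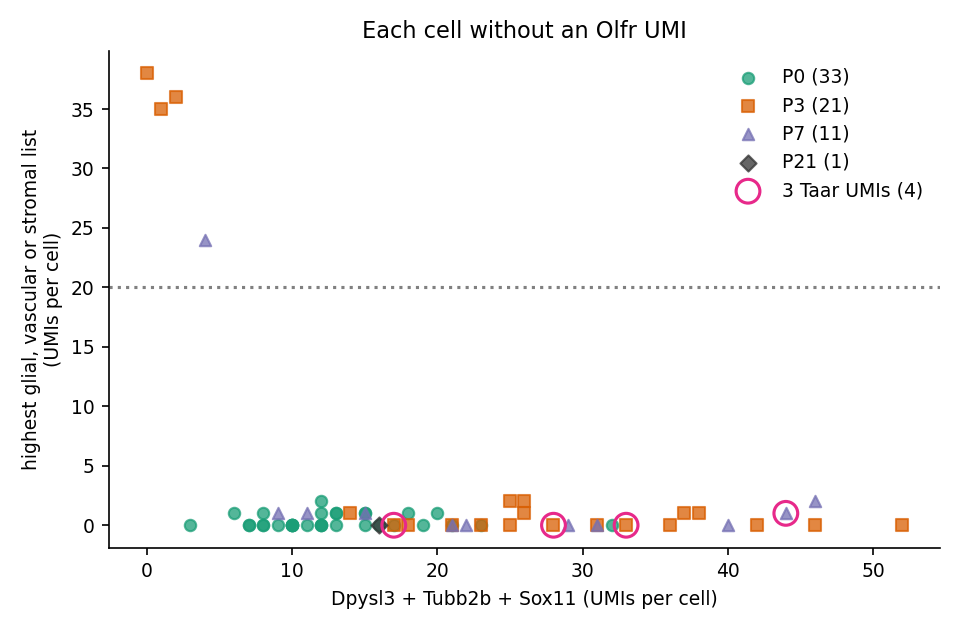
UMIs of Dpysl3, Tubb2b and Sox11 together (x axis) against UMIs of the highest of the glial, vascular and stromal marker lists (y axis), 1 point per receptor-negative cell, coloured by library; the dotted line is at 20 UMIs and rings mark the 4 cells with 3 Taar UMIs. The 4 cells above the line, 3 at P3 and 1 at P7, have few immature neuron UMIs, while the other 62 lie near 0 on the y axis.

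Across libraries, P0 and P3 shared 68 cell barcodes, every other pair between 1 and 9, and 1 of the 66 cells carried a shared barcode. Markers of mature neurons other than Omp were low: 5 of the 66 cells held 5 or more UMIs of that list, and the highest cell held 13. Neurog1 or Tex15, precursor genes, was detected in 5 cells and Mki67 or Top2a, genes of dividing cells, in 7.

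How sharply the Olfr limit set these cells apart can be read from the cells next to it. Immature neurons with 0, 1, 2 and 3 Olfr UMIs numbered 66, 68, 36 and 32, so there was no gap at the limit. At the Gap43 limit, cells without an Olfr UMI numbered 16 with 3, 12 with 4, 2 with 5 and 4 with 6 Gap43 UMIs. Free transcripts in the droplets bear on the first count. Stromal cells, which should lack Olfr transcripts, had at least 1 Olfr UMI in 33.3%, 25.2% and 20% of cells in the P0, P3 and P7 libraries and in 28.6% of the 7 cells at P21. Their median depth over all libraries was 4089 UMIs. An immature neuron with 1 or 2 Olfr UMIs therefore cannot be told apart from a receptor-negative one with free transcripts.

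The receptor-negative share of immature neurons was 10.7% at P0, with an exact binomial 95% interval of 7.52 to 14.8. P3 had 11.9% (7.50 to 17.6), P7 had 7.10% (3.60 to 12.3) and P21 had 2.70% (0.0684 to 14.2). All 4 intervals, which cover counting error only, overlap. With each cell thinned to 2000 UMIs, the shares were 17.9%, 22.6%, 15.5% and 10.8% in the same order. At that depth, 91.2%, 90.6%, 88.0% and 94.1% of mature neurons (10 or more Omp UMIs, at most 1 of Gap43) had an Olfr UMI. So did between 7.20% (P7) and 26.9% (P0) of stromal cells. Without thinning, 96.6%, 93.9%, 94.2% and 96.8% of mature neurons had an Olfr UMI, so mature neurons without one occurred in every library. Whether the receptor-negative cells held Olfr transcripts that were not captured was not tested.

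**Figure D2:**
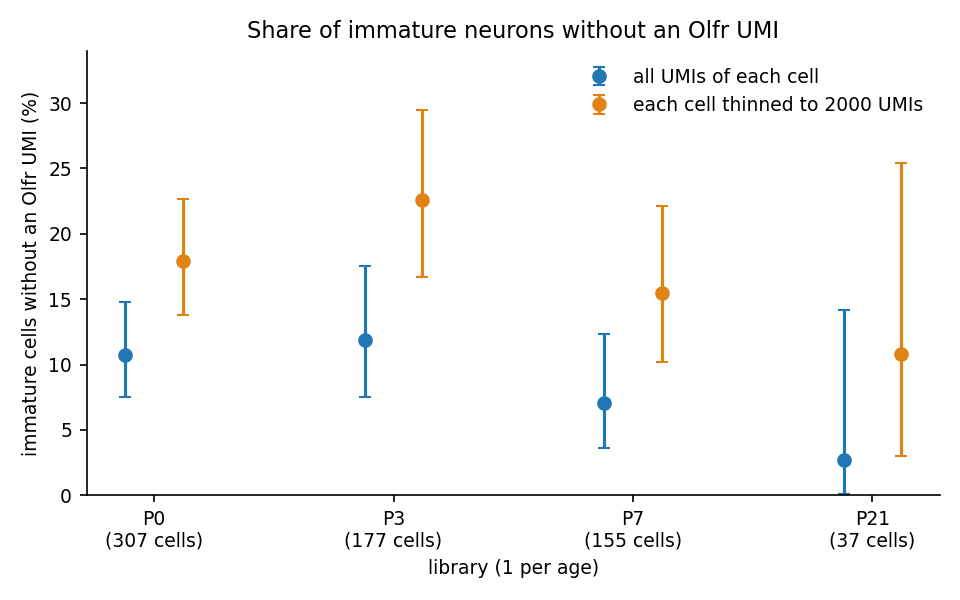
Percent of immature neurons without an Olfr UMI (y axis) in each library (x axis), from all UMIs and after thinning each cell to 2000 UMIs; bars are exact binomial 95% intervals. The share lies between 2.70% and 11.9% before thinning and between 10.8% and 22.6% after it, and the intervals overlap across ages.

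A few receptor-negative cells held transcripts of the other chemoreceptor family of the main epithelium. A Taar UMI was seen in 7 of 66 cells (10.6%, exact binomial 95% interval 4.37 to 20.6), against 1 of 474 receptor-bearing cells (0.211%, 0.00534 to 1.17). The intervals here pool the cells of all libraries and cover counting error only. A neuron with a Taar gene and no Olfr UMI cannot enter the receptor-bearing class, so the gates themselves shape this contrast. By library, the receptor-negative cells with a Taar UMI numbered 3 of 33, 3 of 21, 1 of 11 and 0 of 1 from P0 to P21. Receptor-bearing cells had 0 of 209, 0 of 118, 0 of 117 and 1 of 30, so the share was higher in the receptor-negative cells in each of the first 3 libraries. In 4 cells a single Taar gene had 3 UMIs, Taar9 in 1 cell at P0 and 2 cells at P3 and Taar6 in 1 cell at P7. No receptor-bearing cell reached 3, which allows up to 0.775% of such cells by the exact interval. Immature neurons with 1 or 2 UMIs of an Olfr gene lay between these classes, with a Taar UMI in 4 of 136 cells (2.94%, 0.807 to 7.36) and none at 3, and their interval overlaps that of the receptor-negative cells. As background, a Taar UMI was seen in 1 of 641 stromal cells and 0 of 138 precursors. Of 1254 mature neurons, 20 had a Taar UMI and 11 had 3 or more. The 4 cells with 3 Taar UMIs each had Gng8, Lhx2, Ebf1 and Ebf2 UMIs. Vomeronasal receptor (Vmn) UMIs occurred in 4 receptor-negative cells. The only cell at P21 held 3 UMIs of Vmn2r27, with Trpc2 at 0 and 2 UMIs of the vomeronasal marker list.

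Against receptor-bearing cells of the same libraries, the receptor-negative cells differed in few genes. Higher in the receptor-negative cells were Bfsp2, a beaded filament protein best known from the lens, the LIM-domain cofactors Lmo2 and Lmo4, the neuronal basic helix-loop-helix factor Nhlh2, and Tuba1b, Pebp1, Ifitm2, Atox1 and Col9a2. Lower genes included Ddit3 and Ppp1r15a of the stress response, the axonal adhesion gene Cntn4, and Rprm, Nqo1 and Bglap3. Over 2701 genes tested, 9 (0.333%) were higher and 7 (0.259%) lower by edgeR's quasi-likelihood test on the summed UMIs, with library as a block and Benjamini-Hochberg adjusted p under 0.05. These calls need the P21 library with its single receptor-negative cell. Without it, edgeR called 0 higher and 0 lower of 5475 genes, with 134 and 173 at an unadjusted p under 0.05, and DESeq2 on all 4 libraries also called 0 and 0 (23 and 45 unadjusted). All 16 genes kept their direction without P21. Without the 4 cells that went against the label, and without 1 receptor-bearing cell at P3 rich in glial markers, edgeR called 6 genes higher and 2 lower. Of the 16 genes, 8 then missed the threshold, with adjusted p between 0.0539 and 0.771 (edgeR), among them Tuba1b, Ifitm2, Atox1, Ppp1r15a, Cntn4, Rprm and Nqo1.

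Bfsp2 (chr9:103424924-103480420, minus strand) stood at 423, 202, 154 and 473 CPM in receptor-negative cells at P0, P3, P7 and P21 and at 102, 95.3, 96.7 and 33.4 CPM in receptor-bearing cells. It was higher in receptor-negative cells at P0, P3 and P7, while the P21 value is 2 UMIs of 1 cell. The fitted difference was 2.89-fold (log2 fold change 1.53, SE 0.25, 4 libraries, edgeR adjusted p = 4.5e-06). Without P21 it was 1.48 on the log2 scale (SE 0.26, edgeR adjusted p = 0.084). Immature neurons with 1 or 2 Olfr UMIs had 200, 341, 77.8 and 0 CPM, above the receptor-negative cells at P3, so Bfsp2 was not particular to those. The gene was nearly silent in precursors, with 0 to 29.2 CPM, and in mature neurons, with 0 to 3.07 CPM. It was detected in 29 of the 66 cells, at most 14 UMIs in 1 cell.

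Lmo2 (chr2:103957986-103981878) and Lmo4 (chr3:144188530-144205220) encode LIM-only proteins, which bind no DNA themselves and join factors to Ldb1. Lmo2 was at 220, 172, 96.0 and 0 CPM in receptor-negative cells and at 72.6, 57.2, 40.2 and 55.6 CPM in receptor-bearing cells, higher at P0, P3 and P7, while P21 had no UMI. Its log2 fold change was 1.49 (SE 0.30, edgeR adjusted p = 0.000654) and 1.53 without P21 (SE 0.27, edgeR adjusted p = 0.084). Precursors had 0 to 5.84 CPM and mature neurons 62.1 to 79.4 CPM. Lmo4 was at 159, 273, 518 and 237 CPM against 97.7, 135, 143 and 94.6 CPM. It was higher at P0, P3 and P7, while the P21 value is 1 UMI (log2 fold change 1.20, SE 0.24, edgeR adjusted p = 0.000654, or 0.13 without P21). Stromal cells also carry Lmo4, with a UMI in 39.8% of them, and 50% of receptor-negative and 41.4% of receptor-bearing cells had one.

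Nhlh2 (chr3:102010076-102015492) stood between its levels in the neighbouring classes. Precursors had 929, 505, 626 and 657 CPM and receptor-negative cells 176, 111, 269 and 237 CPM. Receptor-bearing cells had 50.1, 68.9, 90.7 and 33.4 CPM. This order held at P0, P3 and P7, while the P21 value of receptor-negative cells is 1 UMI. Mature neurons had 2.96 to 23.0 CPM. The difference between receptor-negative and receptor-bearing cells was 2.67-fold (log2 1.41, SE 0.30, edgeR adjusted p = 0.00138; 0.17 without P21), and that between receptor-negative cells and precursors was a log2 fold change of -1.95 (SE 0.25, edgeR adjusted p = 3.42e-13). A UMI of Nhlh2 was found in 26 receptor-negative cells, 15 of which also had one of Bfsp2.

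The remaining higher genes differed by less than 2.4-fold. Pebp1, an inhibitor of Raf signalling, was at 546, 293, 288 and 473 CPM against 212, 221, 186 and 145 CPM (log2 fold change 0.91, SE 0.20, edgeR adjusted p = 0.00291). It is widely expressed, with a UMI in 90.8% of stromal cells and 94.9% of precursors, beside 71.2% of receptor-negative and 56.1% of receptor-bearing cells. Ifitm2, a membrane protein induced by interferon, had a log2 fold change of 0.78 and Atox1, a copper chaperone, one of 0.65. Both were higher in all 4 libraries, with only 2 and 3 UMIs in the single cell at P21. Atox1 was detected about equally often, in 74.2% of receptor-negative and 74.7% of receptor-bearing cells. At P3, 1 receptor-negative cell held 17 of the 51 Atox1 UMIs. Tuba1b, an alpha tubulin, had a log2 fold change of 1.21, but its reads can be split with near-identical tubulin genes and the value is uncertain. Col9a2, a cartilage collagen chain, was higher in 3 of 4 libraries, with 203, 111, 57.6 and 710 CPM against 50.1, 90.9, 68.4 and 22.3 CPM, and 3 UMIs of the single cell make up the P21 value.

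Among the lower genes, Ddit3, the stress-response factor CHOP, was at 185, 222, 57.6 and 0 CPM in receptor-negative cells against 405, 292, 418 and 289 CPM in receptor-bearing cells. It was lower in receptor-negative cells at P0, P3 and P7, while the 0 at P21 comes from 1 cell. The fitted level was 0.464 times that of receptor-bearing cells (log2 fold change -1.11, SE 0.23, edgeR adjusted p = 0.00138; 0.21 without P21). Precursors had 0 to 13.6 CPM and mature neurons 85.3 to 110 CPM, so receptor-bearing cells had the highest Ddit3 level of these classes in each library. With cells thinned to 2000 UMIs, Ddit3 was detected in 19.7% of receptor-negative, 43.0% of receptor-bearing and 4.99% of stromal cells.

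Ppp1r15a (chr7:45522916-45526268), the phosphatase subunit GADD34 that reverses the translational arrest of the stress response, was at 397, 455, 250 and 0 CPM against 639, 615, 699 and 261 CPM (log2 fold change -0.75, SE 0.18, edgeR adjusted p = 0.0193; 0.19 without P21). Precursors had 20.5 to 40.9 CPM. Herpud1, another stress-response gene, was at 564, 394, 230 and 0 CPM against 739, 579, 610 and 428 CPM. It was lower at P0, P3 and P7, and the 0 at P21 comes from a single cell. Herpud1 missed the threshold (log2 fold change -0.64, SE 0.18, edgeR adjusted p = 0.0566). Atf4, a factor upstream of Ddit3, had a log2 fold change of -0.02 (SE 0.20) and Atf5, another factor of the response, one of -0.20 (SE 0.17), with edgeR adjusted p = 0.999 for both.

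Cntn4 (chr6:105677660-106699310), at 573 to 759 CPM in mature neurons, was at 176, 162, 192 and 0 CPM against 339, 285, 342 and 289 CPM (log2 fold change -0.91, SE 0.24, edgeR adjusted p = 0.0295). Rprm, a gene of cell cycle arrest, had a log2 fold change of -0.68 and was lower in all 4 libraries, with 1 UMI in the single cell at P21. The last pair depended on 1 library each. Nqo1, a quinone reductase of neurons in the dorsal epithelium, was at 35.3, 212, 38.4 and 0 CPM against 346, 135, 137 and 211 CPM, higher at P3, and without P0 its log2 fold change was 0.0066. Bglap3, one of several near-identical osteocalcin genes and therefore uncertain, was at 106, 232, 192 and 0 CPM against 108, 796, 98.2 and 22.3 CPM, and without P3 its log2 fold change was 0.38.

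**Figure D3:**
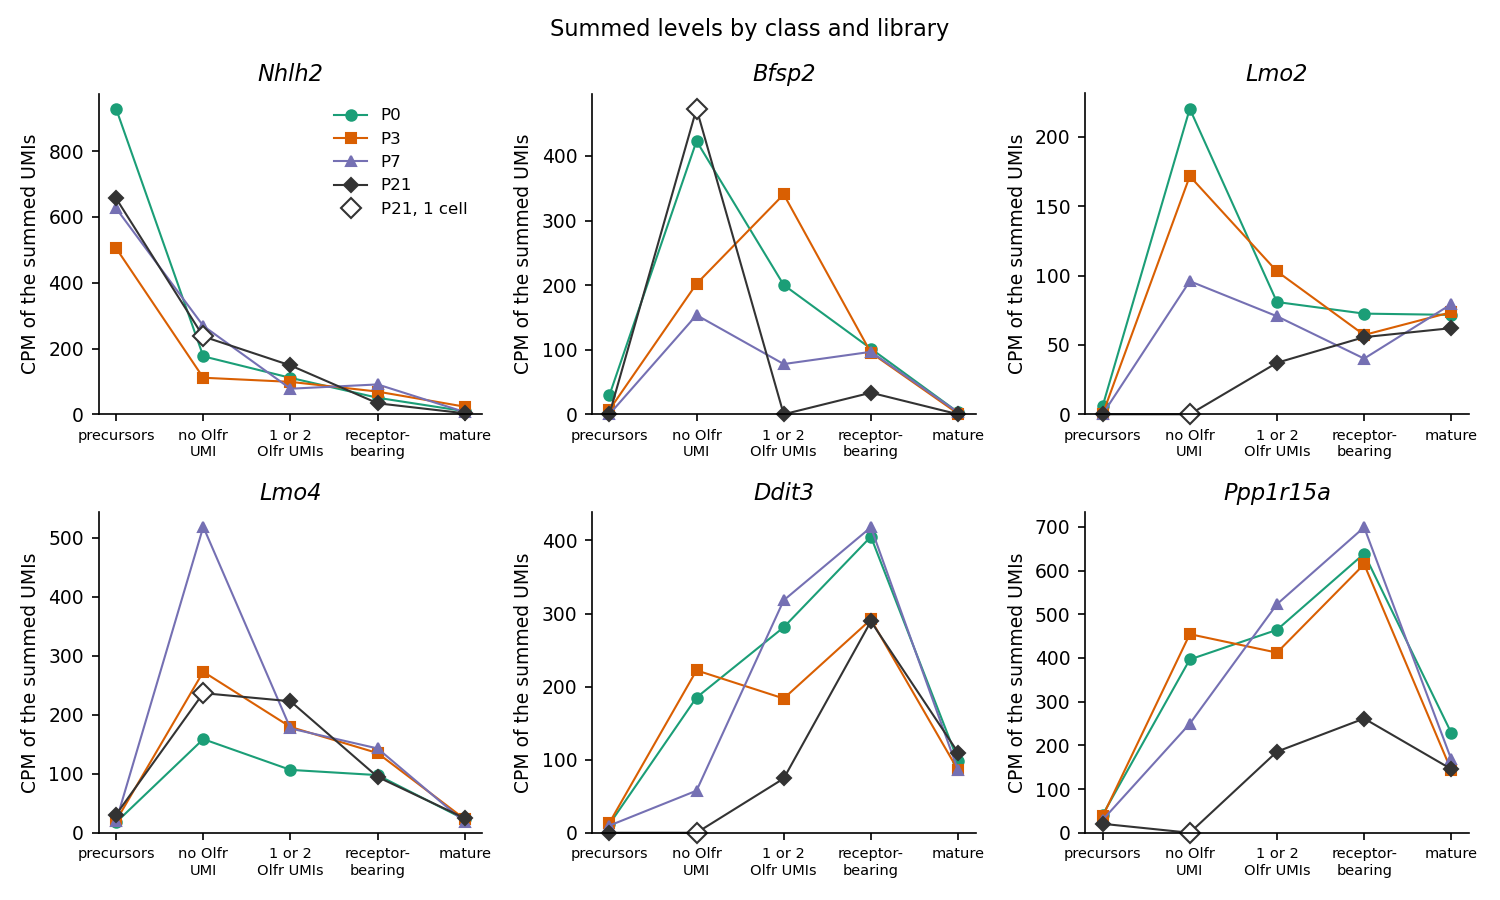
CPM of the summed UMIs (y axes, linear, from 0) of 6 genes in precursors, receptor-negative cells (no Olfr UMI), immature neurons with 1 or 2 Olfr UMIs, receptor-bearing and mature neurons (x axes), 1 line per library; the open diamond is the single cell at P21. Bfsp2, Lmo2 and Lmo4 are higher in receptor-negative than in receptor-bearing cells at P0, P3 and P7, while Ddit3 and Ppp1r15a are lower, and Nhlh2 lies between precursors and receptor-bearing cells.

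Beyond these genes, few members of the pathway lists passed the test between the immature classes. Of 15 unfolded protein response genes that passed the filter on low counts, 0 were higher and 1, Ddit3, was lower, with a median log2 fold change of -0.09 against -0.02 over all genes tested. Growth cone genes had 0 and 0 calls of 23 (median -0.07), factors of receptor choice 0 and 0 of 7 (median 0.17), heterochromatin genes 0 and 0 of 11 (median 0.04) and odour transduction genes 0 and 0 of 12 (median -0.23). Lhx2 was at 370, 333, 499 and 0 CPM against 338, 305, 356 and 323 CPM (log2 fold change 0.18, SE 0.19) and Ebf1 had a log2 fold change of 0.17 (SE 0.16). The receptor transporter Rtp1 was at 159, 131, 173 and 473 CPM against 193, 252, 196 and 206 CPM (log2 fold change -0.46, SE 0.26, edgeR adjusted p = 0.999). Gng13, a G protein subunit of the odour response, was lower in all 4 libraries, P21 resting on a single cell (log2 fold change -0.52, SE 0.17, edgeR adjusted p = 0.162). A missed threshold does not show equal levels.

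Many more genes differed from precursors. Of 1845 genes tested, edgeR called 381 (20.7%) higher and 395 (21.4%) lower in receptor-negative cells, and 475 (22.2%) and 435 (20.3%) of 2139 without P21. Both classes had been gated by Gap43 and Neurod1, so genes that go with either had to differ, and the counts describe how far apart the classes lie. The largest increases were in Prph, a neuronal intermediate filament gene, Homer2, a scaffold protein, Fam92b, Rtp1, Tesc, Bfsp2, Faim and the sodium channel Scn9a. Prph was at 617, 576, 557 and 237 CPM against 5.84, 6.78, 0 and 0 CPM, or 157 UMIs against 3, a pooled ratio of 129.6 with a counting interval of 43.5 to 635. Homer2 was at 626, 576, 1037 and 1183 CPM against 17.5, 3.39, 0 and 20.5 CPM (log2 fold change 6.17, SE 0.37, edgeR adjusted p = 1.59e-59). Rtp1, which escorts receptors to the cell surface, was at 159, 131, 173 and 473 CPM against 0, 3.39, 0 and 41.0 CPM (log2 fold change 4.64, SE 0.60). It was higher than in precursors in each library, though the P21 value is 2 UMIs of 1 cell.

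The largest decreases were in genes of the precursor state. Crabp2, a retinoic acid binding protein, had 0 UMIs in receptor-negative cells and 625, 821, 362 and 533 CPM in precursors. Set against a floor of 3 UMIs over all 66 cells (11.2 CPM), it was at least 59.0-fold lower. The sulfotransferase gene Sult6b1 was also at 0 UMIs, at least 16.3-fold lower. Neurog1, the proneural factor of this lineage, was at 8.81, 10.1, 38.4 and 0 CPM against 637, 810, 656 and 595 CPM (log2 fold change -5.41, SE 0.42, edgeR adjusted p = 8.57e-36). The secretory granule gene Scg2 had a log2 fold change of -5.60 (SE 0.41) and the growth factor Mdk one of -5.54 (SE 0.38). Mfng, a Notch-modifying enzyme, had 2 UMIs in receptor-negative cells (pooled ratio 0.00929, counting interval 0.00112 to 0.0337) and the nuclease gene Dnase2a 1 UMI (0.0153, 0.000385 to 0.0864).

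The counts by list stand beside 20.7% higher and 21.4% lower over all genes tested. Grouped by list, the precursor factors that passed the filter were 13 of 20, of which 10 were lower and 0 higher (median log2 fold change -2.21, against -0.03 over all genes tested). Besides Neurog1 and Nhlh2 they included the RNA-binding gene Elavl4 (log2 -3.61, SE 0.26), Hes6 (-3.37, SE 0.26) and Sox11 (-1.58, SE 0.21), which marks the immature state but stood higher still in precursors. Heterochromatin genes had 5 lower and 0 higher of 8 tested, of 29 in the table, with Smchd1, a chromosome-silencing protein, at -2.59 (SE 0.25) and Hmgb2 at -1.69 (SE 0.23). Factors of receptor choice had 1 higher, Ebf1 (0.95, SE 0.19), and 3 lower of 7, too few for a reading of the list. Lhx2 was the lowest of them, at 370, 333, 499 and 0 CPM against 3103, 2133, 3298 and 3037 CPM (-2.85, SE 0.23), and Nfib and Uncx were the others.

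Growth cone and neurite genes had 11 higher and 4 lower of 20 tested, of 25 in the table (median 0.73). The lower count is near the share of 21.4% over all genes tested, and nothing is read from it. Tuba1a (log2 1.05, SE 0.20), Stmn2 (0.91, SE 0.20) and Dpysl3 (1.20, SE 0.19) were among the higher, while Tmsb4x, an actin-binding peptide, was lower (-1.56, SE 0.20). Odour transduction genes had 5 higher and 1 lower of 6 tested. Gng13 rose from 123, 61, 29.4 and 103 CPM in precursors to 881, 889, 499 and 473 CPM (log2 3.34, SE 0.25), whereas Gnas, the G protein that the olfactory form Gnal replaces, was lower (-1.48, SE 0.21). Both tested genes of receptor trafficking, Rtp1 and Gfy (1.94, SE 0.23), were higher. Of 12 cilia genes 4 were higher and 3 lower, beside 20.7% and 21.4% of all genes tested, and nothing is read from that count.

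**Figure D4:**
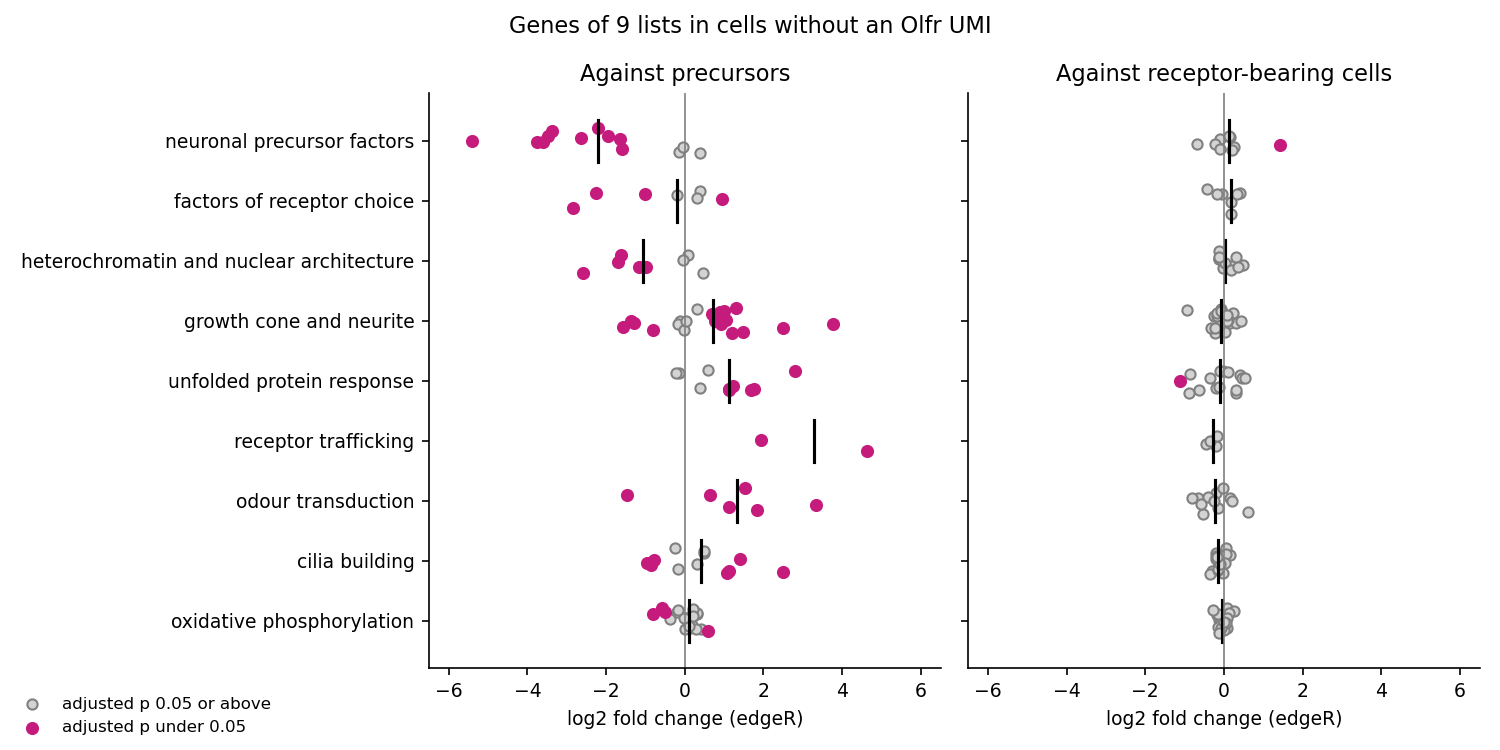
Log2 fold changes (x axes, edgeR) of the tested genes of 9 lists in receptor-negative cells against precursors (left) and against receptor-bearing cells (right), 1 point per gene, filled where the adjusted p is under 0.05, with the list median as a black line. Against precursors, precursor factors lie mostly below 0 and unfolded protein response genes mostly above it; against receptor-bearing cells, Nhlh2 and Ddit3 are the called members of these lists.

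The unfolded protein response list had 6 higher and 0 lower of 10 tested genes against precursors, of 18 in the table, with a median of 1.13. Over all genes tested in that comparison, 20.7% were higher and 21.4% lower. Atf5 was at 1401, 3121, 1613 and 1183 CPM in receptor-negative cells against 292, 261, 274 and 328 CPM (log2 2.81, SE 0.21, edgeR adjusted p = 2.35e-38). Atf4 (1.77, SE 0.28), the chaperone Hspa5 (1.21, SE 0.21), the disulfide isomerase Pdia6 (1.13, SE 0.23), the lectin chaperone Canx (1.13, SE 0.39) and Sdf2l1 (1.68, SE 0.29) were the others. Hspa5 was at 820, 949, 461 and 0 CPM against 275, 312, 431 and 339 CPM, higher at P0, P3 and P7. Whether the difference of these 6 genes from precursors depends on a receptor was not tested. Ddit3 failed the filter in this comparison, with 46 UMIs in receptor-negative cells and 7 in precursors (185, 222, 57.6 and 0 CPM against 11.7, 13.6, 9.79 and 0 CPM), so it too stood above its precursor level at P0, P3 and P7.

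The promoters of Hspa5, Pdia6 and Canx hold the letters of the endoplasmic reticulum stress element, which ATF6 and NF-Y are known to recognise. RefSeq promoters (build GRCm38.p6, 250 bases before to 50 after the start) were searched on both strands for that element (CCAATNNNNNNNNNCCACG), for the ATF4 element TTGCATCA and for TGACGTCA, the cyclic AMP response element. No 2 of these motifs overlapped in the sequences shown. The first motif was found in 6 of 19 genes searched (the list and Ppp1r15a), Hspa5, Hsp90b1, Calr, Canx, Pdia6 and Dnajc3, against 0.119% of 32851 promoters. The list was made of genes of this response, so its share says nothing about these cells. Hsp90b1, Calr and Dnajc3 were not called against precursors. Calr was at 264, 465, 442 and 237 CPM against 362, 434, 489 and 523 CPM in precursors. The second was found in Herpud1 and Chac1 (0.895% of all promoters) and the third in Ppp1r15a (1.79%). Atf5, Atf4, Ddit3 and Sdf2l1 had none of these letters in the window. The 250 bases before the start are shown for the 3 called genes with the stress element in capitals, starting 65 bases before the start in Hspa5 (chr2:34771840-34772089, plus strand), 98 in Pdia6 (chr12:17266339-17266588, plus strand) and 145 in Canx (chr11:50325674-50325923, minus strand). A match is a description of the sequence, and no binding was measured.
Hspa5: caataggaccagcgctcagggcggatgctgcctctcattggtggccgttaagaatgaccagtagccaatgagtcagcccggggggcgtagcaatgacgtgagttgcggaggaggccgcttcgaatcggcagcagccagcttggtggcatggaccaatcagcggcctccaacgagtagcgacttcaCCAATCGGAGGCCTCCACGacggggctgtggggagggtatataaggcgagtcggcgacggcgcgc
Pdia6: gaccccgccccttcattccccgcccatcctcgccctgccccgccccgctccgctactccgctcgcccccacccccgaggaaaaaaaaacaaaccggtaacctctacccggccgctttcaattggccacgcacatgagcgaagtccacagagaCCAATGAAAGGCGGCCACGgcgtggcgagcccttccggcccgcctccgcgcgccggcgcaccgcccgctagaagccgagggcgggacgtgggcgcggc
Canx: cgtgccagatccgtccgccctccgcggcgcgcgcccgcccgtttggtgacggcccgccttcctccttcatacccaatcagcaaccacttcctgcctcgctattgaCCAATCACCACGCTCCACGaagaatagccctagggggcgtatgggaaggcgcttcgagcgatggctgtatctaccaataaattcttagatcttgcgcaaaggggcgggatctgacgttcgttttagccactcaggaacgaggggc

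Across ages, the receptor-negative cells were compared between P0 (33 cells) and P7 (11 cells), since P21 held 1 cell. This is a comparison of 2 libraries with no test. Of 1122 genes with at least 50 CPM and 20 UMIs in either library, 22 (1.96%) passed a 2-fold increase at P7 and 114 (10.2%) a 2-fold decrease, on the log2(CPM + 10) scale. The median of all measured genes was itself -0.19, and 20 UMIs correspond to 176 CPM at P0 but 384 CPM at P7, so a gene low at P0 was less often measured. With median-of-ratios scaling, 33 and 74 genes passed, which moves the share of higher genes among them from 16.2% to 30.8%. The 2 libraries differ in median depth too, 3294 UMIs per cell against 5170.

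Ina, an internexin filament gene of growing neurons, went from 106 CPM at P0 over 141 at P3 to 403 at P7, a ratio of 3.81 (counting interval 1.79 to 8.50), while receptor-bearing cells had a ratio of 1.10 (0.782 to 1.54). Camk2d, a calcium-dependent kinase, went from 70.5 over 121 to 384 CPM (ratio 5.45, 2.30 to 14.3, against 1.84 in receptor-bearing cells). Without the 4 cells rich in other markers it had 17 UMIs at P7, under the 20 asked for. Lmo4 had a ratio of 3.27 (1.73 to 6.30), and 13 of its 27 UMIs at P7 came from 1 cell. Actb, cytoplasmic actin, went from 1058 over 3121 to 3398 CPM (ratio 3.21, 2.53 to 4.09) and had a ratio of 1.89 (1.76 to 2.03) in receptor-bearing cells. Rbm25 (ratio 3.73) and the processed pseudogene Gm8730 (21.8) were also higher. Ccl21a, a lymphatic chemokine, had all of its 112 UMIs in the endothelial-marker cell P7 member 2, and Sparc, a matrix protein, had 24 UMIs at P7 with that cell and 0 without it.

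Lower at P7 were Ctxn3, with 29, 9 and 0 UMIs at P0, P3 and P7 (at least 4.44-fold lower at P7, taking 3 UMIs per library as the floor), the keratin gene Krt8 with 22, 0 and 0 (at least 3.37-fold), Spcs3, a signal peptidase subunit, with 21, 17 and 0 (at least 3.21-fold), and Nov with 20, 8 and 0 (at least 3.06-fold). These rested on few cells in part. Krt8 had 6 and 9 of its UMIs in 2 cells, and Ctxn3 had 7 and 12 of its UMIs at P0 in 2 cells. Receptor-bearing cells had a Spcs3 ratio of 0.858 (0.615 to 1.19) and a Nov ratio of 0.357 (0.218 to 0.565). Dnajc9 (ratio 0.0990, counting interval 0.00240 to 0.613), 1110004E09Rik and Morn2 (both 0.104, 0.00251 to 0.645) had 22, 21 and 21 UMIs at P0 and 1 each at P7. Gm10076, a long non-coding RNA in the annotation, had 66 and 2 (ratio 0.0660, 0.00783 to 0.248).

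Of the unfolded protein response list, 11 genes were measured, 4 of them lower by 2-fold or more at P7 and 0 higher by as much. Over all 1122 measured genes, 10.2% were lower and 1.96% higher by as much. The list had a median of -0.72 against -0.19 over all genes. Herpud1 had 564, 394 and 230 CPM at P0, P3 and P7 (ratio 0.408, counting interval 0.201 to 0.764, against 0.825 in receptor-bearing cells). Ddit3 had a ratio of 0.311 (0.0594 to 1.04), Xbp1, a central factor of the response, 0.327 (0.0622 to 1.10) and Sdf2l1 0.471 (0.189 to 1.03), so these 3 intervals include 1. Growth cone genes had 0 and 0 of 18 measured genes past 2-fold, with a median of 0.12. Atf5 was highest at P3 in receptor-negative cells (1401, 3121 and 1613 CPM) and in receptor-bearing cells (1433, 2863, 2326 and 2804 CPM).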

How the data were processed

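The values deposited by the authors are raw UMI counts, 1 whole number for each gene in each cell. Libraries were made with a droplet kit that reads the 3' end, per the labels' protocols. Cell Ranger 2.1.1, Seurat and the mm10 build are named per the submitters' processing notes, and any filter on cells before deposit is not given in the sources used here.

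Cells were classed by raw UMIs, and UMIs were summed per class and library. The sums were compared with edgeR 4.0.16 in R 4.3.3 (glmQLFit and glmQLFTest, TMM scaling, filterByExpr, Benjamini-Hochberg adjustment over all genes tested, threshold 0.05), with library as a block. Both classes of a pair come from the same library, which is where the pairing comes from. TMM gives each sum a scaling factor, so fitted fold changes do not follow from the CPM alone. For the single P21 cell it was 1.63 against receptor-bearing cells and 1.40 against precursors. The other sums had factors of 0.906 to 0.975. The units are the 4 libraries, 1 per age, whose number of mice is not given. The p-values measure only how the class difference varied among these libraries, with a dispersion partly shared across genes. DESeq2 1.42.0 was an alternative. The procedure was tested on simulated data. Genes used by the gates were left out of results. Olfr genes were left out in the same way. Doublets were kept, and an alternative without the highest Scrublet scores was run (scanpy 1.11.5). Intervals are exact at 95%, Clopper-Pearson for shares and conditional binomial for ratios, and cover counting error only.

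Named against receptor-bearing cells are the 10 largest changes in each direction among genes past the threshold with 1 direction in all 4 libraries, against precursors the 8 largest, and across ages the 8 largest. Lmo2, Col9a2, Nqo1 and Bglap3 passed the threshold outside that rule and were named after their values were seen, as was Herpud1. Of each list the called members with the highest levels are named. Some genes that these rules name are not reported here. The members and lists were chosen with earlier results of these data known. Coordinates are from GENCODE M21 (GRCm38), the same build as mm10, and promoter sequences from RefSeq (GRCm38.p6).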

Additional observations from a re-analysis of the deposited data

How the results depend on the processing

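The differences from receptor-bearing cells were sensitive to the processing. Against 9 higher and 7 lower genes, DESeq2 gave 0 and 0, no filter on low counts 36 and 14 of 17189, a fit with no library block 2 and 0, cells of 2000 to 5000 UMIs 3 and 0, Gap43 at 10 or more UMIs 4 and 0, and receptor-bearing cells taken from 1 Olfr UMI 4 and 1. Leaving out 1 library at a time gave 0 to 5 higher and 0 to 2 lower genes. An alternative added once the data had been examined left out the 4 cells rich in glial, vascular or stromal markers. It also left out 1 such receptor-bearing cell at P3. There, 6 higher and 2 lower genes were called, and without those cells and P21 0 and 0 (133 and 159 at an unadjusted p under 0.05, edgeR). With 1 library left out, the log2 fold change of Nqo1 ranged from -2.98 (without P3) to 0.0066 (without P0) and that of Bglap3 from -1.35 (without P7) to 0.38 (without P3), so both reversed, and the cause was not tested.

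Against precursors, DESeq2 called 213 higher and 314 lower genes, no filter on low counts 511 and 622 of 15079, and cells of 2000 to 5000 UMIs 133 higher and 121 lower of 696 tested. Leaving out 1 library at a time gave 254 to 475 higher and 264 to 435 lower, and no library block 324 and 333.

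Between P7 and P0, median-of-ratios scaling gave 74 lower genes and P3 as the early library 9 higher and 67 lower. Cells of 2000 to 5000 UMIs gave 50 higher and 336 lower, but this setting left 32 receptor-negative cells at P0 and 4 at P7. With so few cells and no share of measured genes beside them, nothing is read from these last counts. P21 as the late library was not run, since it held 1 cell. Allowing at most 1 Olfr UMI gave shares of 21.5% at P0, 23.7% at P3 and 14.8% at P7, thinning to 2000 UMIs 17.9%, 22.6% and 15.5%, and Gap43 at 10 or more UMIs 0% of 29 cells at P21, which allows up to 11.9%. Depth limits single genes: 3 UMIs are 57.6 CPM at P7 and 710 CPM at P21.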
